A study of Mus musculus with 24 samples.

Results

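Imprinted genes were followed across an allelic series of mouse Htt lines, the gene that encodes huntingtin and whose CAG repeat is expanded in Huntington's disease. The members were chosen by name: H19, Igf2, Meg3, Peg3, Plagl1, Cdkn1c, Dlk1, Mest, Grb10 and Snrpn. Of these 10 genes, 8 were measured in both cell types, among 15572 genes with values in both, and H19 and Meg3 were not analysed here. All 8 passed the filter on low values in both cell types (at least 2 libraries with a normalised CPM of 1 or more), although Igf2 in neural progenitors did so in 3 of 12 libraries only. Normalised CPM gives the reads of a gene relative to the size of its library, after the authors' scaling between libraries.

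RNA was sequenced in 24 libraries. Embryonic stem cells of the mouse (mESC) gave 12, and neural progenitors derived from such cells (NPC) gave 12, with 2 for each of 6 genotypes. The genotypes were wild type (WT), a knockout of Htt (KO), and knock-in lines heterozygous for Htt alleles with 20, 50, 92 or 111 CAG repeats (Q20, Q50, Q92 and Q111), where the growth protocol names the third length as 89. The growth protocol, worded for the knock-in lines, keeps mESC with serum and leukemia inhibitory factor on a layer of irradiated mouse embryonic fibroblasts (MEF), and NPC on laminin with FGF and EGF. The series calls the 2 libraries of a group biological samples; how many clones stand behind a genotype is not said, so a genotype and its line cannot be told apart, and p-values measure the spread between these libraries. The knock-in lines came from another laboratory, per the labels, and the origin of the WT and KO cells relative to them is not described.

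The mESC libraries held 58546211 to 81502284 counted reads and the NPC libraries 48525333 to 118038952, and the lowest number of reads behind a value of a member was 22. Htt stood at 139 and 68.5 CPM in the mESC libraries labelled KO 1 and KO 2, against 124 and 113 in WT, so the label of KO 1 was not matched by a lower Htt level. NPC had 100.1 and 94.9 CPM of Htt in KO, below the 137 and 177 of WT. The WT and KO replicates of NPC lay further apart than those of the knock-in lines, with a chi-square per gene of 627 and 648 against 118 to 138. Sampling noise alone would give about 1, so no replicate pair looked like a library counted again.

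Imprinted genes are transcribed mainly from the copy inherited from a single parent, and the choice is set by DNA methylation that is laid down in the germ line and kept through cell division. Many of them control growth before birth and metabolism, and they lie in clusters that share a control region. Cultured embryonic stem cells are known to lose or gain this methylation, so imprinted transcripts can differ between lines of the same genotype. The zinc finger protein ZFP57, which protects the methylated copy, binds the methylated form of the hexamer TGCCGC. Whether a transcript comes from the maternal or the paternal copy was not measured in these data, nor was methylation; the copies named below are background.

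The starts of the 4 members that stood highest together in a line, Q20 NPC, are shown because transcription of these members begins at such starts. Each window runs from 250 bases before to 50 after a start, from RefSeq on GRCm38.p6, in the direction of transcription. Capitals mark TGCCGC or its reverse complement GCGGCA, searched on both strands; no match overlapped another in the windows printed. Where a gene has several starts, the window with the most matches is printed; which start was used in these cells was not measured. The windows are chr7:60005150-60005449 for Snrpn (minus strand, 7 CpG), chr7:6730370-6730669 for Peg3 (minus strand, 13 CpG), chr10:13090582-13090881 for Plagl1 (plus strand, 26 CpG) and chr7:142661222-142661521 for Igf2 (minus strand, 14 CpG).
Snrpn: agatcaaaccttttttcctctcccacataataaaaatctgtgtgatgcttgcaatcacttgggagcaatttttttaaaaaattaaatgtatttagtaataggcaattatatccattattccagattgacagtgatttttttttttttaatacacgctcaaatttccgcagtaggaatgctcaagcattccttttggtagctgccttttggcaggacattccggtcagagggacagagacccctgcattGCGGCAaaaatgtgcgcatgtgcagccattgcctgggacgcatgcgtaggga
Peg3: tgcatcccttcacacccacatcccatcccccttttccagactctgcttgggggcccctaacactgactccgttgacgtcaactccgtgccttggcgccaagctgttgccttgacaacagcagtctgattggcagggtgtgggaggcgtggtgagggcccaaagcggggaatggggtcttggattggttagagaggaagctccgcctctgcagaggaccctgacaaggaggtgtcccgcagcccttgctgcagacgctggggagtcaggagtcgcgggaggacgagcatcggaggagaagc
Plagl1: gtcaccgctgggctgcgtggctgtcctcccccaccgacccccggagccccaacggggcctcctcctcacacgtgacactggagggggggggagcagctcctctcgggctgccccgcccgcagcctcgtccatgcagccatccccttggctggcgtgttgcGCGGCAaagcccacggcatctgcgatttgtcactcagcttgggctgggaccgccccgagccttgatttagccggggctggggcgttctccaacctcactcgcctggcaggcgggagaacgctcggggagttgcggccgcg
Igf2: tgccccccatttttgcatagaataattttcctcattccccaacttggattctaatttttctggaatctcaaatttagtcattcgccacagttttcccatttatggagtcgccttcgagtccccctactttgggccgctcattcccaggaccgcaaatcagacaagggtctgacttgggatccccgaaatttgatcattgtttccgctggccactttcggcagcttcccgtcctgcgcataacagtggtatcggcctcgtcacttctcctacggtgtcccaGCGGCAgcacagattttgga
The hexamer was found in the windows of Snrpn, Plagl1 and Igf2, with 1 match each, and in 11.6% of all 32817 windows of this length; the median window held 7 CpG. The printed windows were picked for their matches, so their share cannot be set against that of all windows. A match is a description of the letters and no measure of binding.

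In NPC the imprinted genes differed widely between lines, and Q20, the shortest repeat among the knock-in lines, stood furthest apart. Snrpn, Peg3, Igf2 and Plagl1, all known as paternally expressed, were higher in both Q20 libraries than in each of the other 10. Over all tested genes, 11.2% stood above in this way, and 2.34% by at least 2-fold on the CPM + 1 scale, as Snrpn (3.32-fold gap to the nearest other library) and Igf2 (3.49-fold) did. The gaps of Peg3 and Plagl1 were 1.82-fold and 1.65-fold. Igf2 passed the filter only with the Q20 libraries, so its place in the NPC counts here and below is no support of its own. In the test across all 6 genotypes, 7 of the 8 members differed, against 38% of 13206 tested genes (limma adjusted p under 0.05); Mest was the exception with an adjusted p of 0.0684, which ran from 0.00285 to 0.246 over the alternatives and passed without either WT library, among others. The Dlk1 call ended without any single knock-in library (0.055 to 0.0936). Without the Q20 line 4 members were called (Cdkn1c, Grb10, Peg3 and Snrpn), against 19.8% of genes.

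**Figure D1:**
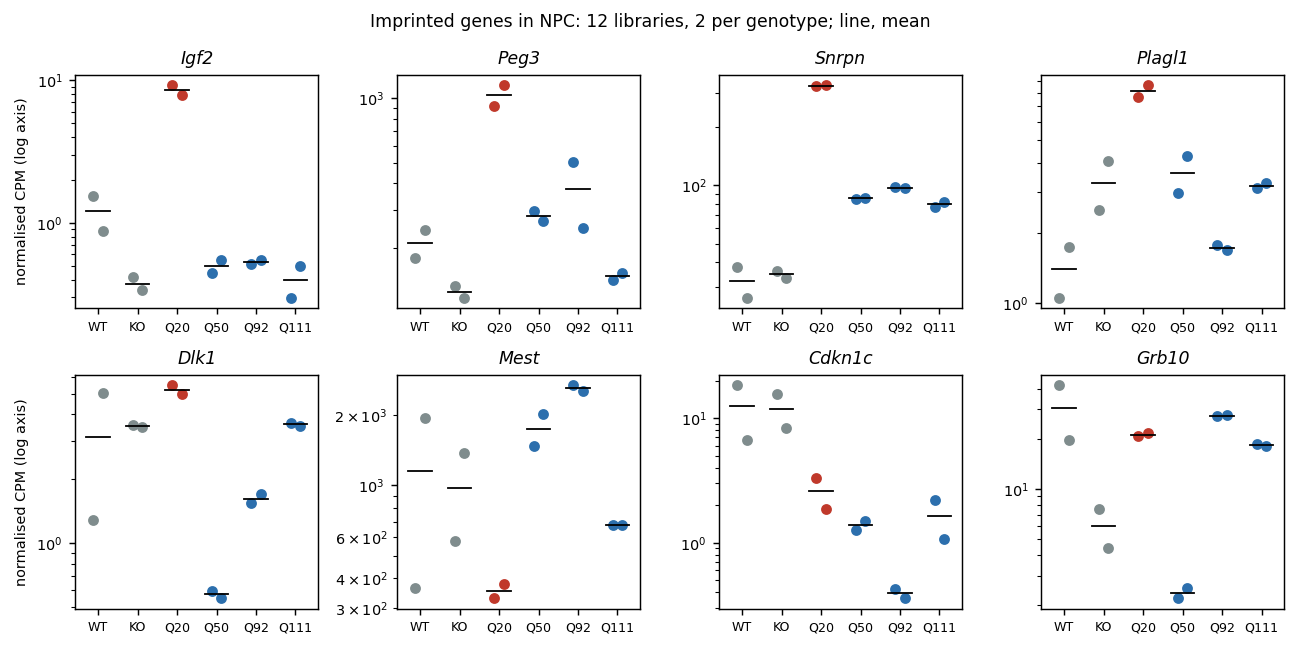
Normalised CPM (log axis) of the 8 imprinted genes in the 12 NPC libraries, by genotype; each point is a library and the line is the mean of 2. Igf2, Peg3, Snrpn and Plagl1 are highest in both Q20 libraries, Dlk1 and Grb10 lowest in both Q50 libraries, and Cdkn1c lowest in both Q92 libraries.

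Snrpn (ENSMUSG00000102252, GRCm38 chr7:59982495-60140219, minus strand, up to 11 exons) encodes a spliceosomal Sm protein of neurons and lies in the Prader-Willi cluster. Its NPC values were 37.9 and 26.3 CPM in WT, 36.3 and 33.4 in KO, 327 and 329.7 in Q20, 85.5 and 85.8 in Q50, 97.8 and 96.4 in Q92 and 77.8 and 82.4 in Q111. Both Q20 libraries stood far above the rest, the other knock-in lines between 77.8 and 97.8, and WT and KO at or below 37.9, so WT and KO overlapped with each other and with no knock-in library. Q20 averaged 328 ± 1.98 (SD, n = 2) and WT 32.1 ± 8.21 (SD, n = 2), a ratio of 10.2. The genotype means ran Q20, Q92, Q50, Q111, KO and WT, where libraries overlapped between the neighbours KO and WT. On the log2(CPM + 1) scale Q20 exceeded WT by 3.34 (SE 0.16, limma adjusted p 7.03e-06). Snurf, read from the same transcripts as Snrpn, was counted as a gene of its own, and its NPC values were 2.68 and 1.73 CPM in WT, 0.828 and 0.626 in KO, 31.8 and 31.3 in Q20, 2.11 and 2.02 in Q50, 3.72 and 5.28 in Q92 and 1.69 and 4.51 in Q111. The Snurf change was 3.36 (SE 0.33, limma adjusted p 0.000222); it was added after its values were seen, and reads in exons that both genes share could be credited to either.

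Peg3 (ENSMUSG00000002265, chr7:6703892-6730431, minus strand, up to 10 exons) encodes a zinc finger protein of the embryo and brain. Its NPC values were 179 and 243 CPM in WT, 132 and 117 in KO, 918 and 1149 in Q20, 298 and 266 in Q50, 503 and 248 in Q92 and 142 and 152 in Q111. The Q20 libraries lay above all others, and both KO libraries lay below all others, by a gap of 1.07-fold (2.04% of genes lay below in KO). Q20 was 4.91 times WT by the means and exceeded it by 2.30 (SE 0.30, limma adjusted p 0.00133) on the log2 scale. The order of the means was Q20, Q92, Q50, WT, Q111 and KO, where libraries overlapped between the neighbours Q92 and Q50.

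Igf2 (ENSMUSG00000048583, chr7:142650766-142666816, minus strand, up to 6 exons) encodes the insulin-like growth factor that drives fetal growth. Its NPC values were 1.54 and 0.871 CPM in WT, 0.414 and 0.335 in KO, 9.26 and 7.86 in Q20, 0.445 and 0.553 in Q50, 0.512 and 0.547 in Q92 and 0.298 and 0.496 in Q111. It was the faintest of the 8 in NPC, at most 1.54 CPM outside Q20. It passed the filter through the line in which it was high. Its place among the called members, in each comparison with Q20 and in the slope, is thus no support of its own. The ratio of the means of Q20 and WT was 7.09. On the log2 scale Q20 exceeded WT by 2.13, given with no test for that reason. That scale understates a change from so low a level. Ordered by the mean, the genotypes were Q20, WT, Q92, Q50, Q111 and KO, where libraries overlapped between the neighbours Q92 and Q50, and between Q50 and Q111, and between Q111 and KO.

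Plagl1 (ENSMUSG00000019817, chr10:13060504-13131694, plus strand, up to 9 exons) encodes a zinc finger factor that activates other imprinted genes. In NPC its values were 1.05 and 1.74 CPM in WT, 2.5 and 4.07 in KO, 7.67 and 8.62 in Q20, 2.98 and 4.27 in Q50, 1.77 and 1.69 in Q92 and 3.11 and 3.26 in Q111. No other library reached those of Q20, and WT and Q92 were lowest. The Q20 mean was 5.83 times that of WT, a difference of 1.95 (SE 0.24, limma adjusted p 0.000841) on the log2 scale. By their means the genotypes followed as Q20, Q50, KO, Q111, Q92 and WT, where libraries overlapped between the neighbours Q50 and KO, and between KO and Q111, and between Q92 and WT.

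On the log2 scale against WT, 5 of the 8 members passed in NPC Q20, where 14.5% of all tested genes did. Higher in Q20 were 4 members (9.97% of all genes), and lower was Cdkn1c (4.57%). Igf2, 1 of the 4, entered the test through Q20, so its call, also under the alternatives below, is no support of its own. The median change of the 8 members was 1.34, against -0.02 for all genes. The 4 rises passed under every alternative tried, 12 for Snrpn and Peg3 and 11 for Igf2 and Plagl1, with adjusted p up to 0.028, 0.0307, 0.041 and 0.046.

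**Figure D2:**
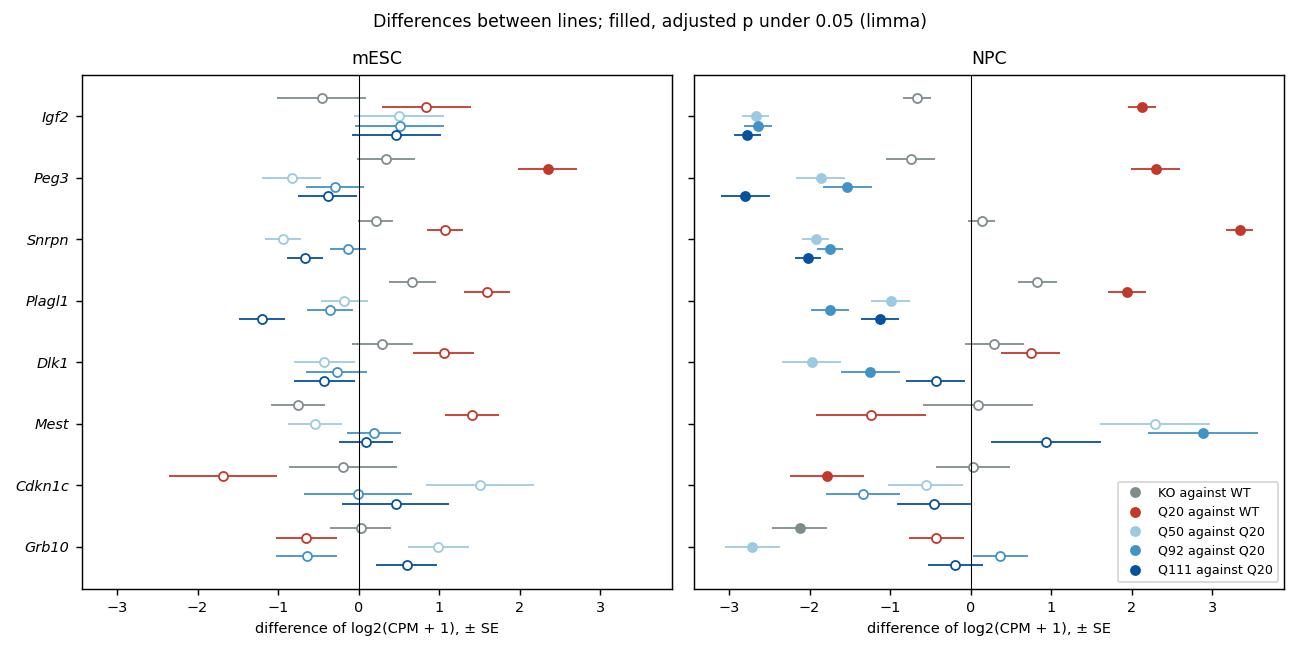
Differences of log2(CPM + 1) for 5 comparisons in mESC and NPC, with the standard error; filled points passed limma at an adjusted p under 0.05. In NPC the Q20 against WT points of Snrpn, Peg3, Igf2 and Plagl1 lie between 1.95 and 3.34, and the comparisons with Q20 lie on the other side of 0; these share the Q20 libraries. In mESC a single point is filled, that of Peg3.

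The Q20 NPC libraries also stood apart in cell type markers. The 8 pluripotency markers with NPC values summed to 107.6 and 109.3 CPM in Q20 and to between 5.67 and 34.7 elsewhere; Pou5f1 was at 90.1 and 87.4 in Q20 and at or below 0.405 in the other libraries, and Nanog at 13 and 13.7 against at most 1.63. Others of the list were not higher in Q20: Klf4 was at 3.19 and 3.83 there and up to 18.5 elsewhere, Klf2 at 0.77 and 0.836 against up to 7.82, and Esrrb at 0.721 and 0.751 against up to 7.74. The 13 neural progenitor markers summed to 4677 and 4868 in Q20 against 6447 to 10340 in the rest. Of 12 tested neuronal markers, 7 were higher and 2 lower in Q20 than in WT by limma, where 9.97% of all genes were higher and 4.57% lower. Rbfox3, among the 12, reached 1 CPM in 2 libraries only with those of Q20, so its part is no support of its own. Stmn2, listed as a neuronal marker, was at 103 and 128 in Q20 and at most 5.51 in the other NPC libraries. In mESC it was at 173 to 391 in all 12 libraries, so in these data it does not mark neurons alone. The 12 neuronal markers together nevertheless summed to 915 and 1072 in Q20 NPC, against 1074 to 1734 in the other NPC libraries. Map2, a large part of that sum, was at 599 and 646 in Q20 and at 1593 and 1228 in WT. The 8 astrocyte markers summed to 2365 and 2661 in Q20 and to 345 to 2209 in the rest. By limma 2 of the 8 were higher in Q20 than in WT and 0 lower. Aldoc, a large part of that sum, was at 1244 and 1091 in Q20 and at 1257 and 1010 in WT. Of 11 tested feeder fibroblast markers, 6 were higher and 1 lower in Q20 than in WT by limma, and their list of 12 summed to 336 and 401 CPM in Q20 against 187 and 236 in WT; Col3a1 was at 239.8 and 194 in Q20 and 24 and 21.8 in WT. Of 6 tested early lineage markers, 4 were higher and 1 lower in Q20 than in WT, against 9.97% and 4.57% of all genes. Among the 6, Eomes and Fgf5 reached 1 CPM in the Q20 libraries only, so their part in this count is no support of its own. The 10 of that list with values summed to 33.5 and 37.6 CPM in Q20, 2.17 and 12.8 in WT, and 33.5 and 40.2 in Q111. In none of these lists was a marker at 0 in both Q20 libraries, but 5 of the 8 pluripotency markers were below 1 CPM. The part of any of these markers' cells in the level of the imprinted genes was not tested, and in bulk RNA more cells of a type and more RNA per cell cannot be told apart.

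**Figure D3:**
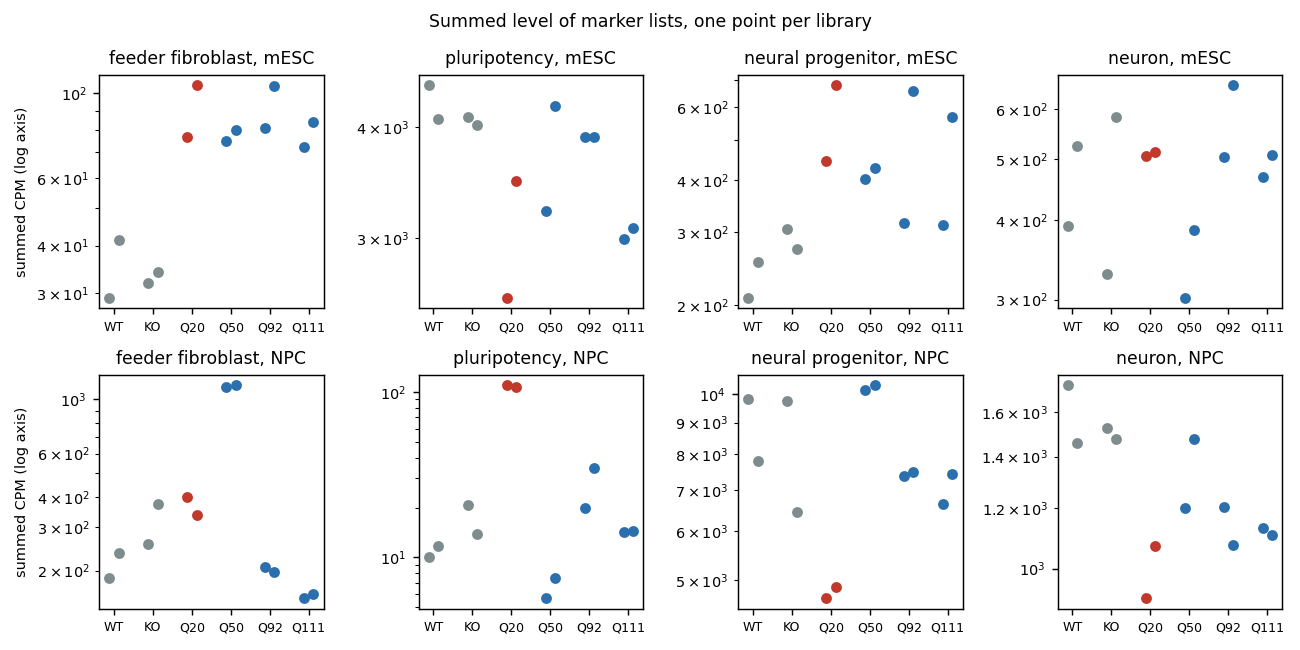
Summed normalised CPM (log axis) of 4 marker lists, with a point per library, in mESC (upper) and NPC (lower). In mESC the feeder fibroblast sum is 29.2 to 41.3 in WT and KO and 72.3 to 104.8 in the knock-in lines; in NPC the pluripotency sum is highest in Q20 and the feeder fibroblast sum in Q50.

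The lines with longer repeats were each compared with Q20, a set of comparisons that share the Q20 libraries. Igf2 passed the filter through those libraries, so its part in the counts that follow is no support of its own. In Q50, 6 of 8 members were lower and none higher, where 18.8% of all genes were called (10.7% lower, 8.05% higher). The log2 difference, Q50 minus Q20, was -2.71 for Grb10, -1.98 for Dlk1, -1.93 for Snrpn, -1.86 for Peg3 and -0.996 for Plagl1 (limma adjusted p at most 0.021). For Igf2 it was -2.67, given with no test. In Q92, 5 were lower and Mest was higher, against 25.8% called (15.9% lower, 9.88% higher). In Q111, 4 were lower, against 28.3% called (16.1% lower). Snrpn, Peg3, Igf2 and Plagl1 were among the lower genes each time, at -1.75, -1.54, -2.64 and -1.74 in Q92 and at -2.02, -2.80, -2.77 and -1.12 in Q111. Plagl1 in Q111 was lost without any of the 4 libraries compared, with adjusted p from 0.0564 to 0.0734. In Q50 its call ended without either Q20 library (0.0935 and 0.13) or without Q50 replicate 1 (0.14). In Q92 the Peg3 call ended without Q20 replicate 2 (0.0631), which brought the count of called members from 6 to 3.

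Along repeat length, the NPC slope over the 8 knock-in libraries was called and negative for the same 4 genes, where 22% of all genes were called (10.1% lower). Over 91 repeats it was -2.20 (SE 0.53, limma adjusted p 0.0228) for Peg3, -1.67 (SE 0.46, limma adjusted p 0.0348) for Snrpn and -1.28 (SE 0.39, limma adjusted p 0.0493) for Plagl1. For Igf2, which entered the test through Q20, it was -2.39. These slopes rested on the Q20 line. With 1 mean value per line no member passed (adjusted p 0.313 to 0.431 for these 4), and without the Q20 line the Snrpn slope was -0.06 (limma adjusted p 0.895), that of Igf2 -0.12 (0.753), that of Plagl1 -0.43 (0.639) and that of Peg3 -1.05 (0.426). The members called without Q20 were Dlk1, at 2.18 over 91 repeats (limma adjusted p 0.0141), and Grb10, at 4.24 (0.0369), both lowest in Q50; 14.2% of all genes were called in that fit. Leaving out either Q20 or either Q111 library ended all 4 calls, and without either Q92 library the call of Peg3 alone was left. The Plagl1 call also ended without Q50 replicate 2 (0.067), with edgeR (0.0536), with no filter (0.0583), with a pseudocount of 0.5 (0.0539) and with 89 repeats for the third line (0.0566).

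Cdkn1c (ENSMUSG00000037664, chr7:143458339-143461050, minus strand, up to 4 exons) encodes an inhibitor of cyclin-dependent kinases that slows cell division, and it is known as maternally expressed. Its NPC values were 18.3 and 6.62 CPM in WT, 15.5 and 8.32 in KO, 3.33 and 1.87 in Q20, 1.28 and 1.51 in Q50, 0.429 and 0.36 in Q92 and 2.19 and 1.06 in Q111. All 8 knock-in libraries lay below all 4 WT and KO libraries, as 0.916% of all genes did, and both Q92 libraries lay below the other 10 with a gap of 1.44-fold (8.12% of genes). The direction was thus opposite to that of Snrpn, whose 8 knock-in libraries lay above all 4 WT and KO libraries (0.901% of genes). These groupings over all knock-in lines were chosen after the values were seen. The Q20 minus WT difference was -1.78 (SE 0.46, limma adjusted p 0.036). The adjusted p had a range over the alternatives of 0.00765 to 0.218, and the call ended without Q20 replicate 1 (0.102), Q20 replicate 2 (0.218) or WT replicate 1 (0.0972). In order of the mean, the levels ran WT, KO, Q20, Q111, Q50 and Q92, where libraries overlapped between the neighbours WT and KO, and between Q20 and Q111, and between Q111 and Q50.

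Grb10 (ENSMUSG00000020176, chr11:11930508-12038683, minus strand, up to 17 exons) encodes an adaptor that dampens insulin and IGF receptor signalling; it is read from the maternal copy in most tissues and from the paternal copy in neurons. Its NPC values were 41.8 and 19.7 CPM in WT, 7.61 and 4.44 in KO, 20.7 and 21.5 in Q20, 2.2 and 2.55 in Q50, 27.3 and 27.8 in Q92 and 18.5 and 18.2 in Q111. Both Q50 libraries were lowest (gap 1.53-fold; 4.9% of genes lay below in Q50), and the KO libraries came next. The WT mean was 5.1 times that of KO. The KO minus WT difference was -2.12 (SE 0.34, limma adjusted p 0.0275), and no other member was called there, where 1.42% of all genes were (0.545% lower). The adjusted p ran from 0.00346 to 0.772 over 12 alternatives, and the call ended without KO replicate 2, without WT replicate 1 and in a fit of the KO and WT libraries alone. Without WT replicate 2, 4 members were called for KO against WT (Grb10, Igf2, Plagl1 and Dlk1). The mean levels ran in the order WT, Q92, Q20, Q111, KO and Q50, where libraries overlapped between the neighbours WT and Q92.

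Dlk1 (ENSMUSG00000040856, chr12:109452823-109463336, plus strand, up to 6 exons) encodes a membrane protein related to Notch ligands that holds back differentiation. In NPC it was faint, with 1.28 and 5.01 CPM in WT, 3.58 and 3.5 in KO, 5.45 and 4.96 in Q20, 0.599 and 0.553 in Q50, 1.54 and 1.69 in Q92 and 3.66 and 3.53 in Q111. Both Q50 libraries lay lowest (gap 1.43-fold), and the means ran Q20, Q111, KO, WT, Q92 and Q50, where libraries overlapped between the neighbours Q111 and KO, and between KO and WT, and between WT and Q92. The difference from Q20 was -1.98 (SE 0.37, limma adjusted p 0.00702) in Q50 and -1.25 (SE 0.37, limma adjusted p 0.0386) in Q92. The first call ended without Q20 replicate 1 (0.0614) and the second without any of the 4 libraries compared (0.122 to 0.168).

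The Q50 NPC libraries, lowest in Grb10 and Dlk1, had the highest summed level of feeder fibroblast markers, 1124 and 1139 CPM against 154 to 401 in the other libraries, with all 12 markers in the table and 1 of them below 1 CPM in Q50. Col3a1 was a large part of that sum, at 608 and 630 in Q50. Col1a1, a collagen of fibroblasts, was at 64.5 and 56.6 in Q50 and at most 4.32 elsewhere. Others of the list were not highest in Q50. Fbn1 was at 134 and 173 there and at 205 and 316 in KO, and Thy1 at 3.69 and 1.95 against 12.7 and 9.19 in KO. Twist1 was at 4.22 and 2.87 against 4.93 and 4.76 in Q111. The part of these markers in the levels of Grb10 and Dlk1 was not tested.

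Mest (ENSMUSG00000051855, chr6:30723547-30748465, plus strand, up to 13 exons) encodes a hydrolase-like protein of the mesoderm and is paternally expressed. It was the most abundant member in NPC and the least even between replicates, with 363 and 1931 CPM in WT, 577 and 1368 in KO, 329.7 and 378 in Q20, 1476 and 2008 in Q50, 2668 and 2539 in Q92 and 678 and 678 in Q111. The WT libraries differed 5.32-fold and the KO libraries 2.37-fold. The WT range held both KO libraries, both Q111 libraries, Q20 replicate 2 and Q50 replicate 1. Both Q92 libraries lay above the other 10 (gap 1.26-fold; 7.96% of genes), and Q92 exceeded Q20 by 2.88 (SE 0.68, limma adjusted p 0.0169), a call that ended without any of the 4 libraries (0.073 to 0.0975). Mest was thus not among the genes that stood high in Q20: its Q20 mean of 354 ± 34 (SD, n = 2) was the lowest of the 6, and its change against WT of -1.24 (SE 0.68, limma adjusted p 0.301) did not pass. By the mean the order was Q92, Q50, WT, KO, Q111 and Q20, where libraries overlapped between the neighbours Q50 and WT, and between WT and KO, and between KO and Q111.

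In mESC the picture was weaker by the test, and the split lay between all knock-in lines and the WT and KO libraries. All 8 knock-in libraries lay above all 4 WT and KO libraries for Igf2, Peg3 and Mest, as for 2.07% of all tested genes. No member differed among the 6 genotypes (0 of 8, against 0.201% of 13916 genes, limma adjusted p under 0.05), with 6 at an unadjusted p under 0.05 (9.9% of all genes) and 0 by edgeR. With the replicate number as a block, the count was 4, against 8.67% of genes: Mest (limma adjusted p 0.000709), Peg3 (0.0208), Snrpn (0.0244) and Plagl1 (0.0259).

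**Figure D4:**
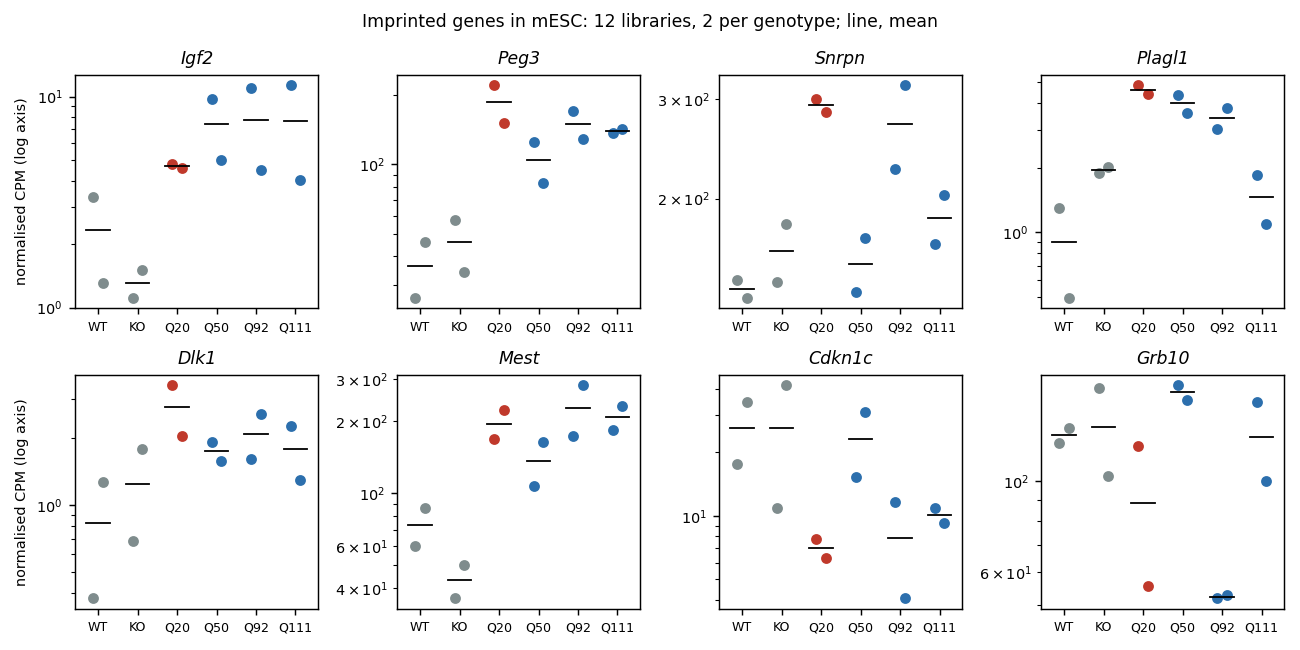
Normalised CPM (log axis) of the 8 imprinted genes in the 12 mESC libraries, by genotype; each point is a library and the line is the mean of 2. For Igf2, Peg3 and Mest all knock-in libraries lie above all WT and KO libraries, with Peg3 at 26.5 to 57.6 in WT and KO and at 82.6 to 219.6 in the knock-in lines.

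Peg3 was the member called in mESC Q20 against WT, where 0.323% of all genes were (0.259% higher). Its mESC values were 26.5 and 45.9 CPM in WT, 57.6 and 34.4 in KO, 219.6 and 151 in Q20, 125 and 82.6 in Q50, 170.5 and 129 in Q92 and 137 and 141 in Q111. The change was 2.35 (SE 0.36, limma adjusted p 0.0481), close to the 2.30 of NPC. Without any of the 4 libraries it did not pass (0.12 to 0.219), nor with edgeR (0.0718) or in a fit of the WT and Q20 libraries alone (0.376). With the replicate block 4 members passed, against 10.6% of genes, namely Mest (limma adjusted p 0.00259), Peg3 (0.0106), Plagl1 (0.0116) and Snrpn (0.0129).

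Mest stood in mESC at 60.2 and 86.9 CPM in WT, 36.3 and 49.8 in KO, 168 and 223 in Q20, 107 and 164 in Q50, 173 and 282 in Q92 and 184 and 232 in Q111. The libraries labelled KO, of which 1 had Htt at the WT level, were lowest (gap 1.20-fold; 1.41% of genes lay below there), WT next, and every knock-in library was above 106. Without the block the Q20 minus WT difference came to 1.41 (SE 0.33, limma adjusted p 0.132). Mest overlaps Copg2, which was higher in replicate 1 than in replicate 2 of every mESC genotype (233 and 111 CPM in WT), and the use of strand in counting is not stated in the sources used here.

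Igf2 was at 3.35 and 1.31 CPM in WT, 1.11 and 1.51 in KO, 4.77 and 4.6 in Q20, 9.79 and 5.01 in Q50, 10.9 and 4.49 in Q92 and 11.3 and 4.01 in Q111 in mESC. Replicates of WT, Q50, Q92 and Q111 differed 1.96-fold to 2.83-fold, and the change of Q20 against WT was 0.84 (SE 0.55, limma adjusted p 0.609). Plagl1 stood at 1.3 and 0.496 CPM in WT, 1.88 and 2.02 in KO, 4.83 and 4.39 in Q20, 4.36 and 3.59 in Q50, 3.02 and 3.78 in Q92 and 1.84 and 1.09 in Q111, with both Q20 libraries above the other 10 by a gap of 1.01-fold (1.91% of genes). Snrpn, at 144 and 134 CPM in WT, 142 and 181 in KO, 301 and 284 in Q20, 137 and 170.0 in Q50, 225 and 317 in Q92 and 166 and 203 in Q111, was high in Q20 and Q92, where libraries overlapped, and did not set the knock-in lines apart.

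The other 3 members showed no such split in mESC. Cdkn1c stood at 17.6 and 34.9 CPM in WT, 10.9 and 41.6 in KO, 7.8 and 6.34 in Q20, 15.4 and 31 in Q50, 11.6 and 4.07 in Q92 and 10.9 and 9.3 in Q111, with replicates that differed up to 3.81-fold in KO. Dlk1 was at 0.379 and 1.27 CPM in WT, 0.687 and 1.79 in KO, 3.47 and 2.05 in Q20, 1.92 and 1.59 in Q50, 1.62 and 2.57 in Q92 and 2.29 and 1.29 in Q111, so that libraries overlapped between all neighbours in the order of its means. Grb10 was at 124 and 135 CPM in WT, 168 and 103 in KO, 121 and 55.5 in Q20, 171 and 158 in Q50, 51.9 and 52.7 in Q92 and 156 and 100.2 in Q111, and both Q92 libraries lay just below the other 10 (gap 1.05-fold; 1.04% of genes).

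In the remaining mESC comparisons no member was called by limma or edgeR. For KO against WT the count was 0 with 1 at an unadjusted p under 0.05, and 0.0144% of genes were called. Against Q20 it was 0 for Q50 (3 unadjusted; 0.00719%), 0 for Q92 (0 unadjusted; 0.00719%) and 0 for Q111 (2 unadjusted; 0% of genes). The repeat length slope gave 0 (1 unadjusted, Plagl1 at -1.02; 0% of genes).

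The summed level of the feeder fibroblast markers moved with the mESC split, though not every marker did. The 10 of 12 markers with mESC values summed to 29.2 to 41.3 CPM in WT and KO and to 72.3 to 104.8 in the knock-in lines. Col1a1 was at 0.494 to 1.21 in WT and KO and at 7.59 to 17.6 in the knock-in lines, and Col1a2 at 0.808 to 2.6 and at 17.5 to 31.4. Others overlapped, such as Thy1, at 3.66 to 11.3 in WT and KO and at 4.37 to 12.3 in the knock-in lines. Twist1, at 1.455 to 2.62 and at 0.473 to 4.83, did so too. By limma 2 of the 10 were called for Q20 against WT, both higher, against 0.323% of genes called. Such fibroblasts are known to express imprinted growth genes, and their part in the Igf2, Peg3 and Mest levels was not tested. The 14 neural progenitor markers, 1 of them at 0 in both WT libraries, summed to 208 to 305 CPM in WT and KO and to 312 to 679 in the knock-in lines. The 13 pluripotency markers with values summed to 2570 to 4459 CPM over the 12 libraries, with none at 0 in both libraries of a genotype.

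Effects, but not levels, could be compared between the cell types, since the tables were scaled separately. The rise of Snrpn in Q20 over WT was larger in NPC than in mESC by 2.27 (SE 0.28, limma adjusted p 0.000271), the only member for which the Q20 effect differed; 4.27% of 12321 genes did (2.89% with a larger NPC value). The adjusted p ran from 5.1e-05 to 0.00319 over 14 alternatives. The effects on Peg3 differed by -0.05 (SE 0.49). Those on Mest, called in neither cell type without the replicate block, differed by -2.65 (SE 0.79, limma adjusted p 0.078). With the block, which called 10.7% of genes, the limma adjusted p was 0.0141. No member differed in the KO effect (0, with 2 unadjusted; 0.0406% of genes) or in the slope (0, with 3 unadjusted; 4.86%).

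Per kilobase of exon, and as the mean of the 6 genotype means, Mest was the most abundant member in NPC at 317 CPM per kb, ahead of Snrpn at 50.8 and Peg3 at 27.2. Cdkn1c (2.48), Grb10 (1.95), Dlk1 (0.521), Plagl1 (0.455) and Igf2 (0.337) were far lower. Within mESC the level was 92.8 for Snrpn, 37.3 for Mest, 12.8 for Grb10, 8.25 for Peg3 and 8.23 for Cdkn1c, while Igf2 (0.906), Plagl1 (0.347) and Dlk1 (0.308) were below 1.

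Of 44 other imprinted genes on a list drawn up from general knowledge, 33 were in each table and 30 were tested in each cell type. In NPC, 18 of the 30 differed among the genotypes, against 38% of all genes. Rtl1 and Asb4, both among the 18, passed the filter only through the Q20 libraries. Their calls here and in the comparisons with Q20 that follow are thus no support of their own. For Q20 against WT, 8 were higher and 1 lower, Rtl1 and Asb4 among the higher (14.5% of all genes called; 9.97% higher), and the median change was 0.27. Against Q20, 8 were lower and 2 higher in Q50, 9 and 4 in Q92, and 10 and 3 in Q111, where 18.8%, 25.8% and 28.3% of all genes were called (10.7%, 15.9% and 16.1% lower). Rtl1 and Asb4 are among the lower genes each time. No other imprinted gene was called for KO against WT in NPC (0, with 4 unadjusted and 0 by edgeR), nor in any mESC comparison (with at most 7 unadjusted, and 0 by edgeR). These fits leave out the replicate block, with which 10.6% of all mESC genes were called for Q20 against WT. The calls of the other imprinted genes with the block are not given, so an absence of mESC differences cannot be concluded.

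Both Q20 NPC libraries stood above the other 10 for 8 of these 30, of which Rtl1, Zdbf2, Magel2 and Asb4 did so by at least 2-fold. Rtl1 and Asb4 passed the filter only through the Q20 libraries, so their place in this count was fixed by the filter. Counting members and other genes, 10 of 20 tested genes known as paternally expressed stood above in this way, against 1 of 12 known as maternally expressed and 1 of 6 whose copy depends on tissue or transcript; 11.2% of all genes did. Leaving out Igf2, Rtl1 and Asb4, which reach 1 CPM in 2 libraries only with those of Q20, the counts were 8 of 18 and 0 of 11. This grouping by parental copy was made after the values were seen and was not tested. In mESC, 3 of 18 paternally and 1 of 14 maternally expressed genes stood above in Q20, against 1.91% of all genes.

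**Figure D5:**
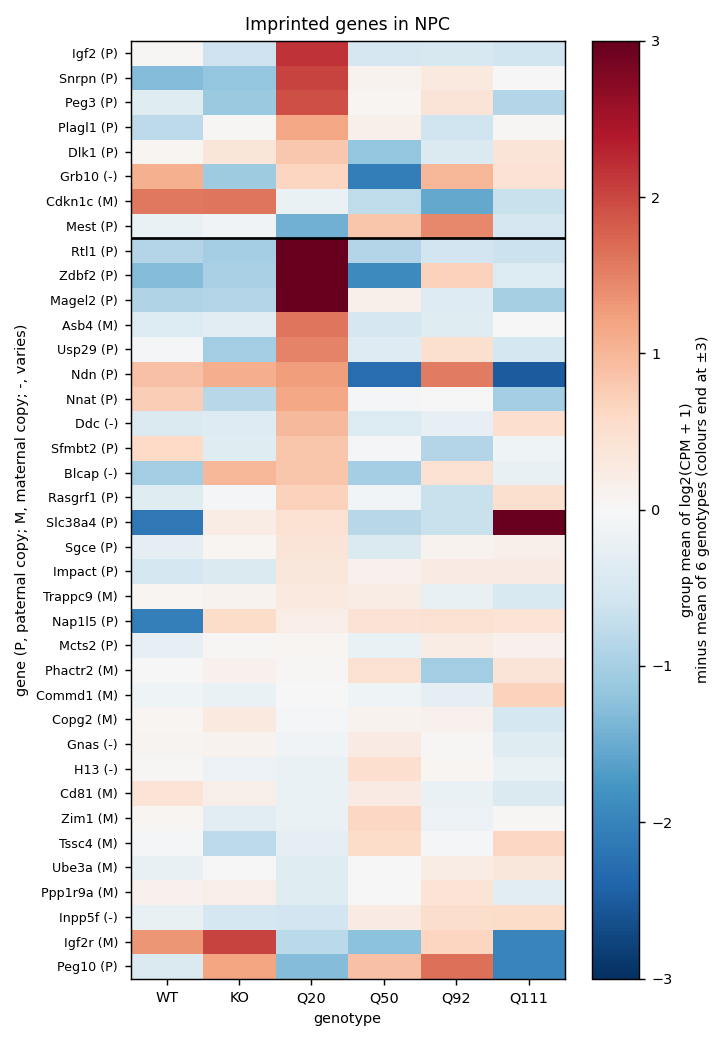
Mean log2(CPM + 1) of each genotype in NPC minus the mean of the 6 genotypes, for the 8 members (above the line) and the 30 other imprinted genes, ordered by the Q20 value; colours end at ±3. The upper rows of each block, high in Q20, are mostly genes of the paternal copy (P), with Asb4 as a maternal one (M).

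Zdbf2, paternally expressed, stood at 0.596 and 0.749 CPM in WT, 0.463 and 1.97 in KO, 52.9 and 68 in Q20, 0.0967 and 0.0823 in Q50, 7.35 and 4.17 in Q92 and 1.98 and 2.14 in Q111 in NPC. It was nearly silent in WT, KO and Q50, and Q20 exceeded WT by 5.19 (SE 0.34, limma adjusted p 2.63e-05). Rtl1, a retrotransposon-derived gene next to Dlk1 on chromosome 12, was at 0.228 and 0 CPM in WT, 0 and 0 in KO, 68.1 and 14.4 in Q20, 0.135 and 0.0823 in Q50, 0.215 and 0.532 in Q92 and 0.474 and 0.142 in Q111, so that the Q20 replicates, both above 14, were themselves far apart. Rtl1 entered the test through Q20 alone, so its difference from WT, 4.88 on the log2 scale, is given with no test. Its partner transcripts on the opposite strand cannot be told apart from it where counting ignored strand. Magel2, in the Snrpn cluster on chromosome 7 and of a single exon, was at 0.175 and 0.0491 CPM in WT, 0.128 and 0.132 in KO, 15.6 and 16.7 in Q20, 0 and 4.43 in Q50, 0 and 1.55 in Q92 and 0.0948 and 0 in Q111. Its Q20 minus WT difference was 3.95 (SE 0.70, limma adjusted p 0.00615), and it was named after its values were seen. Asb4, maternally expressed, was at 0.123 and 0.0859 CPM in WT, 0.128 and 0.229 in KO, 3.37 and 3.63 in Q20, 0.0387 and 0.0353 in Q50, 0.182 and 0.109 in Q92 and 0.609 and 0.369 in Q111. Asb4 too entered through Q20 alone, and its log2 difference from WT was 2.03, with no test given.

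The neighbours of the members did not all share their pattern. Usp29, which starts beside Peg3 and shares its control region, was at 5.15 and 4.11 CPM in WT, 1.78 and 1.79 in KO, 17.3 and 13.2 in Q20, 3.5 and 3.29 in Q50, 4.43 and 10.6 in Q92 and 5.13 and 1.59 in Q111 in NPC; Q20 was highest, and the change against WT was 1.53 (SE 0.45, limma adjusted p 0.0557). Zim1, on the far side of Peg3, was at 2.05 and 2.01 in WT and 1.28 and 1.77 in Q20. Ndn, a single-exon gene in the Snrpn cluster, was listed at 0 in a single library of Q50 and of Q111 and stood between 91.1 and 167 in the other 10. Ube3a, in the same cluster and read from both copies outside neurons, was at 130.3 and 157 in WT and at 111 and 151 in Q20. Its slope along repeat length was 0.67 (SE 0.15, limma adjusted p 0.0155), where 22% of all genes were called. That slope treats the 8 knock-in libraries of 4 lines as separate, and a fit with 1 mean value per line is not given for Ube3a. Ddc, beside Grb10, was at 0.333 and 0.258 CPM in WT, 0.374 and 0.309 in KO, 2.37 and 2.48 in Q20, 0.174 and 0.47 in Q50, 0.413 and 0.532 in Q92 and 1.25 and 1.7 in Q111, higher in Q20 by 1.40 (SE 0.15, limma adjusted p 0.000349), a direction that Grb10 did not share. Copg2, which overlaps Mest, differed from WT by -0.13 in Q20 (limma adjusted p 0.531).

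Igf2r, the maternally expressed receptor that clears Igf2 from the cell surface, stood in NPC at 179 and 333 CPM in WT, 369 and 430.3 in KO, 58.3 and 51.5 in Q20, 33.5 and 48.5 in Q50, 137 and 169.9 in Q92 and 23.9 and 23.9 in Q111. The Q20 minus WT difference was -2.14 (SE 0.29, limma adjusted p 0.00152), while Igf2 was higher there. The low level was not restricted to Q20: Q50 and Q111 were lower still, and all 8 knock-in libraries lay below all 4 WT and KO libraries, as for Cdkn1c (0.916% of genes).

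In mESC the other imprinted genes with the smallest p in the test among genotypes were Peg10 (limma adjusted p 0.0894), Tssc4 (0.139), Usp29 (0.185) and Sfmbt2 (0.325), so none was called without the replicate block. Usp29, the neighbour of Peg3, was at 5.37 and 2.14 CPM in WT, 1.7 and 1.92 in KO, 16.3 and 9.73 in Q20, 5.44 and 3.07 in Q50, 2.13 and 1.69 in Q92 and 11.7 and 6.11 in Q111 in mESC. Its highest library was in Q20, as in NPC, but Q20 and Q111 overlapped. Phlda2, a maternally expressed growth inhibitor of the placenta near Cdkn1c, ranged from 1.56 CPM in a WT library to 58 in a Q111 library in mESC, with no line apart from the rest.

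Of 12 genes that keep imprints through division, such as ZFP57 partners and DNA methyltransferases, 10 were tested in NPC and 2 differed among the genotypes, against 38% of all genes. None was called for Q20 against WT there. For the repeat length slope 5 of 10 were called, all upward, against 12% of genes called upward and 22% called in all. That slope rests on 4 lines, and whether these calls depend on the Q20 line was not tested. In mESC 1 of 12 was called for Q20 against WT, against 0.323% of genes.

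The genes most like each member over the 12 NPC libraries, by Pearson's r of log2(CPM + 1) in a search over genes whose mean reached 5 CPM, were Pim2 for Igf2 (0.981), Slco5a1 for Snrpn (0.963), Sh3d19 for Cdkn1c (0.948), Bcl11a for Grb10 (0.936), Gsta4 for Peg3 (0.926), Tmtc4 for Plagl1 (0.925) and Gmip for Dlk1 (0.886). Between members, r was 0.843 for Snrpn and Peg3, 0.826 for Peg3 and Igf2, and 0.745 for Snrpn and Igf2. The libraries of a line are not independent, so these values describe the pattern only.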

How the data were processed

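The authors deposited a table of normalised CPM (a signal per gene and library) for each cell type, whose column totals differ between libraries. Per the submitters' processing notes, CASAVA 1.8, STAR and GRCm38.p6 were used, in roles not given there. All values were whole multiples of a step per library (within 0.1 read), which gave back the counted reads; TMM scaling recomputed with edgeR 4.0.16 matched the columns. Columns of other samples not used: 0.

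Log2(CPM + 1) was tested with limma 3.58.1 (variance trend, R 4.3.3) over genes with at least 1 CPM in at least 2 libraries, 13916 in mESC and 13206 in NPC, with Benjamini-Hochberg adjustment over all of them at 0.05. The 6 groups share 1 estimate of spread, from 2 libraries each. The slope used 8 knock-in libraries, and the interaction all libraries. Scripts were tested on simulated data. Symbols and positions come from the tables and GENCODE M21 (99.94% and 99.95% of identifiers matched). Python was 3.11.15 and matplotlib 3.10.9.

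Differences between replicates 1 and 2 correlated between all 15 pairs of genotypes in mESC (0.25 to 0.547), so the numbers pair the mESC libraries by the data and not by a label; in NPC 3 of 15 pairs exceeded 0.1. Alternatives were pseudocount 0.5, other filters and scalings, edgeR, the replicate block, fits of the compared libraries alone and left-out libraries, with fits without the Q20 line added after seeing the data. Named other genes were the 4 with the smallest F test p per cell type and neighbours of members. The members and lists were chosen with earlier results of these data known.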

Additional observations from a re-analysis of the deposited data

Results flagged for a closer look

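The effect of the Q20 line on Snrpn differed between the cell types: the rise over WT was larger in NPC than in mESC by 2.27 on the log2(CPM + 1) scale (SE 0.28, limma adjusted p 0.000271 for the difference). All 14 alternatives gave an adjusted p under the threshold. The Q20 NPC libraries also held Pou5f1 at 90.1 and 87.4 CPM, against at most 0.405 in the other NPC libraries. Others of the pluripotency list, Klf4, Klf2 and Esrrb, were not higher in Q20. The part of Pou5f1 or its cells in the difference was not tested.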

How the results depend on the processing

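No called difference changed direction under any alternative; members that were not called did, such as the NPC slopes of Dlk1 (-0.22, and 2.18 without the Q20 line) and Mest (1.21, and -1.46). Counts of called members moved by over 1.5 times in the following cases. With the replicate block, mESC gave 4 members for the test among genotypes and 4 for Q20 against WT, while the NPC slope gave 1 (Peg3 at a limma adjusted p of 0.0403, with Igf2 at 0.0572, Snrpn at 0.059 and Plagl1 at 0.0791) and the difference between cell types 1 for the slope and 2 for Q20 against WT; the other counts stayed within 1.5 times. In mESC Q20 against WT, edgeR and the fit of the compared libraries alone both gave 0. In NPC that fit gave 0 for KO against WT, and 1 mean value per line gave 0 for the slope. A mean CPM of at least 5 left 5 members in NPC and called 2 for the slope, 2 for Q20 against WT, 3 for Q50, 3 for Q92, 2 for Q111 and 4 among genotypes. Without the Q20 line, NPC gave 4 among genotypes (Cdkn1c, Grb10, Peg3 and Snrpn; 19.8% of genes) and 2 for the slope.

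With a library left out, the NPC counts ran from 0 to 4 for the slope, 0 to 4 for KO against WT, 4 to 6 for Q20 against WT, 4 to 6 for Q50, 3 to 4 for Q92, 3 to 3 for Q111 and 6 to 8 among genotypes. For the difference between cell types they ran from 0 to 1 for the slope, 0 to 1 for KO against WT and 1 to 2 for Q20 against WT. In mESC every such count was 0 to 0. Scaling the columns to equal totals moved the median change of all NPC genes from -0.02 to 0.13 for Q20 against WT and from 0.03 to -0.17 for Q111 against Q20, with no called member's direction turned. With 2 libraries a group, faint members such as Igf2 and Dlk1, with as few as 22 reads, are the least certain.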

Other observations

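Some other imprinted genes stood apart in lines other than Q20 NPC. Slc38a4, an amino acid transporter known as paternally expressed and chosen after its values were seen, was at 1.77 and 8.37 CPM in WT, 12.7 and 49.6 in KO, 26.5 and 33.4 in Q20, 12.3 and 10.9 in Q50, 12.3 and 14 in Q92 and 172 and 179 in Q111 in NPC, with both Q111 libraries above the other 10 by a gap of 3.42-fold, as 0.409% of genes were by at least 2-fold. In Q111 it exceeded Q20 by 2.52 (SE 0.66, limma adjusted p 0.0241). Peg10, a retrotransposon-derived gene of the paternal copy, was at 70.6 and 134 CPM in WT, 104 and 136 in KO, 248 and 304 in Q20, 13.4 and 1.29 in Q50, 104 and 200.7 in Q92 and 127 and 173 in Q111 in mESC. Both Q50 libraries lay below the other 10 by 4.99-fold. Peg10 was the only 1 of 13916 tested genes to do so by at least 2-fold (0.00719%), so that share is Peg10 itself. The test among genotypes gave a limma adjusted p of 0.0894. In NPC Peg10 was not low in Q50, at 347 and 361, but the Q111 replicates stood at 2.82 and 635. Tssc4, in the Cdkn1c cluster, was lowest in mESC Q20, at 5.09 and 6.07 CPM against at least 20.1 in the other libraries, and did not stand low in NPC Q20, at 32.7 and 22.7.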
